A study of Mus musculus with 12 samples.

Results

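The genes described here are 51 genes of the response governed by the transcription factor ATF4, of serine and folate metabolism and of aminoacyl-tRNA synthesis, out of 34650 gene names on the array. They were selected by name from a list written with earlier results of these same arrays in view, so their levels and counts describe the genes and test nothing about the list. Of the 51, 50 had a probe well above background and were among 16497 genes tested. The exception was Slc7a11, the cystine exchanger, whose signal was not well above background on any of the 12 arrays. The members fall into 6 classes by function: 13 transcription factors and other stress response genes (called regulators here), 3 enzymes of serine synthesis, 8 enzymes of other amino acids, 6 enzymes of folate metabolism, 9 amino acid transporters (8 tested) and 12 aminoacyl-tRNA synthetases.

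RNA was measured on 1-colour Agilent arrays in splenic B cells of 9-week-old female BALB/c mice, isolated by negative selection. All cultures, controls included, ran for 4 days with anti-CD40 at 10 µg/ml and LPS (lipopolysaccharide) at 2 µg/ml, stimuli that make B cells divide. The groups were wild-type controls, wild-type cells with IL-4 (25 ng/ml), STAT6 knockout controls and STAT6 knockout cells with IL-4, with 3 arrays in each group. STAT6 carries the signal of the IL-4 receptor to the nucleus, so the design asks which effects of IL-4 need it. The labels do not say whether the arrays of a group came from separate mice, so p-values may measure only technical spread, and 3 arrays a group limit the precision.

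ATF4 is made when kinases that sense missing amino acids, stress in the endoplasmic reticulum, viral RNA or lack of haem phosphorylate the translation factor eIF2. General translation then falls while the ATF4 message is translated more. ATF4 pairs with C/EBP proteins on composite DNA elements and raises genes for amino acid uptake, amino acid synthesis and tRNA charging. Serine feeds one-carbon units into the folate cycle, which dividing lymphocytes use to make nucleotides.

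A composite C/EBP and ATF element of the form TGATGNAA, read on either strand (TTNCATCA in reverse), was looked for from 250 bases before to 50 bases after each gene's start in RefSeq promoters of mouse build GRCm38.p6. The table held 41 of the 51 genes, and 15 of these (36.6%) had the element, against 4.51% of all 27025 gene symbols. The element was found in 5 of 8 synthetases, 4 of 7 amino acid enzymes, 4 of 12 regulators, 2 of 6 transporters, 0 of 3 serine enzymes and 0 of 5 folate enzymes. Among the other lists used below it was found in 4 of 13 further ATF4 targets, 1 of 13 transporters and 1 of 12 genes of eIF2 and its kinases. It was found in 0 of 8 other cytosolic synthetase genes, 0 of 15 mitochondrial ones and 0 of the other amino acid, folate, endoplasmic reticulum stress, growth and glycolysis genes in the table. A match describes letters in a window and does not show that a factor binds there. The stretches below are from the genes' own strands, 5′ to 3′, with the element in capitals, and show the element in members of the regulator, amino acid and synthetase classes, whose responses are given further on.

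Atf3, chr1:191183410-191183469, minus strand: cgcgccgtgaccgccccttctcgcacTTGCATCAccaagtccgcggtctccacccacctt
Nupr1, chr7:126625547-126625606, minus strand: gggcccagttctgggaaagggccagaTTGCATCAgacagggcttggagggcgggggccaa
Chac1, chr2:119351023-119351082, plus strand: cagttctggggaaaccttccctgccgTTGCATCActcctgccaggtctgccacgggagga
Asns, chr6:7693210-7693258, minus strand: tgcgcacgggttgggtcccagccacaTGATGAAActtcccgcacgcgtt
Pycr1, chr11:120643818-120643877, minus strand: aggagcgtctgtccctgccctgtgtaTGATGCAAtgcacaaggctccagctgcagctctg
Got1, chr19:43524674-43524733, minus strand: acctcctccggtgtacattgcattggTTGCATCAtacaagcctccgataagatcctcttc
Pck2, chr14:55540137-55540196, plus strand: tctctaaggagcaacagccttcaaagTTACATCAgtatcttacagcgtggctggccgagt
Aars, chr8:111033704-111033763, plus strand: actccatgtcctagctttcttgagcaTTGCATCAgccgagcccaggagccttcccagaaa
Gars, chr6:55037945-55038000, plus strand: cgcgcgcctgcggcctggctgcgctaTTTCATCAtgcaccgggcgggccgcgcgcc
Tars, chr15:11399659-11399699, minus strand: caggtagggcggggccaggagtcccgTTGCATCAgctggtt

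The element lay 110 bases before the start in both Atf3 and Nupr1, 103 bases before it in both Pycr1 and Pck2, and 15 bases before it in Tars. Asns and Pycr1 held it in the TGATGNAA orientation on the gene's strand, and the other stretches in the reverse one. The remaining 5 matched genes with the element were Trib3, Slc7a11, Slc1a4, Iars and Yars. Atf4 itself, Atf5, Ddit3, Cebpb and the serine enzymes had none in this window.

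Between 40.7% and 44.0% of spots were well above background on each array, and none was saturated. Correlations between arrays of a group were 0.994 to 0.998 over the genes tested. Stat6, the knocked-out gene, stood at 3.11 to 3.23 in wild-type controls and at 1.13 to 1.30 in knockout controls. These are log2 signals relative to the 75th percentile of the array, the scale of every level given here. With IL-4 it stood at 3.29 to 3.42 in wild type and at 1.30 to 1.59 in the knockout. Signal of its probe was therefore lower in the knockout but not absent. B cell markers (Cd79a, Cd79b, Ms4a1, Pax5, Cd22) were well above background on all 12 arrays, as were 4 of 5 macrophage markers (Emr1, Csf1r, Cd14, Cd68), 3 of 4 T cell markers with a probe (Cd3e, Cd3g, Cd4) and 2 of 4 dendritic cell markers (Flt3 and Siglech). Cd8a, Xcr1 of dendritic cells and 3 of 3 markers of natural killer cells were so on none, and Itgax was so on the 3 wild-type IL-4 arrays alone. In bulk RNA, fewer cells of a type and less RNA per cell cannot be told apart. The arrays came from 2 slides. All arrays of wild-type cells shared the first with knockout controls 1 and 2, while knockout control 3 shared the second with its IL-4 group. With slide as a block, the knockout IL-4 response is the knockout IL-4 arrays minus knockout control 3. That control had the highest value among the 3 knockout controls for 39 of 50 members, against 37.7% of all genes. The knockout controls also stood apart in a list of 12 glycolysis and hypoxia genes (Bnip3, Ankrd37 and Egln3 among them), whose mean level was 5.23, 5.82 and 6.04 in knockout controls 1, 2 and 3, against 4.13 to 4.29 in wild-type controls, 3.76 to 3.78 in wild-type IL-4 arrays and 3.84, 4.25 and 5.56 in knockout IL-4 arrays.

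With IL-4, most members were higher in both genotypes. A gene was called higher or lower if its adjusted p was under 0.05 in a limma fit over all genes and arrays, at any size of change. In wild-type cells 43 of 50 members were higher, where 26.4% of all genes were, and 2 were lower, where 30.8% of all genes were. At least a 2-fold rise was reached by 23 members (5.72% of all genes) and a 2-fold fall by 0 (6.95%). In knockout cells 46 were higher (27.5% of all genes) and 0 were lower (14.7%), and 21 rose (0.788%) and 0 fell (2.73%) at least 2-fold. In all, 42 of the 50 were higher in both genotypes, as were 12.6% of all genes. The median log2 change was 0.91 in wild-type and 0.83 in knockout cells, against -0.04 and 0.05 over all genes. Because the list was written with these responses known, the counts are printed beside the shares of all genes and nothing is read from the gap. In the refits that left out each array in turn or changed one processing choice, all 43 of the wild-type rises kept their call, and 42 of the 46 knockout rises did.

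**Figure D1:**
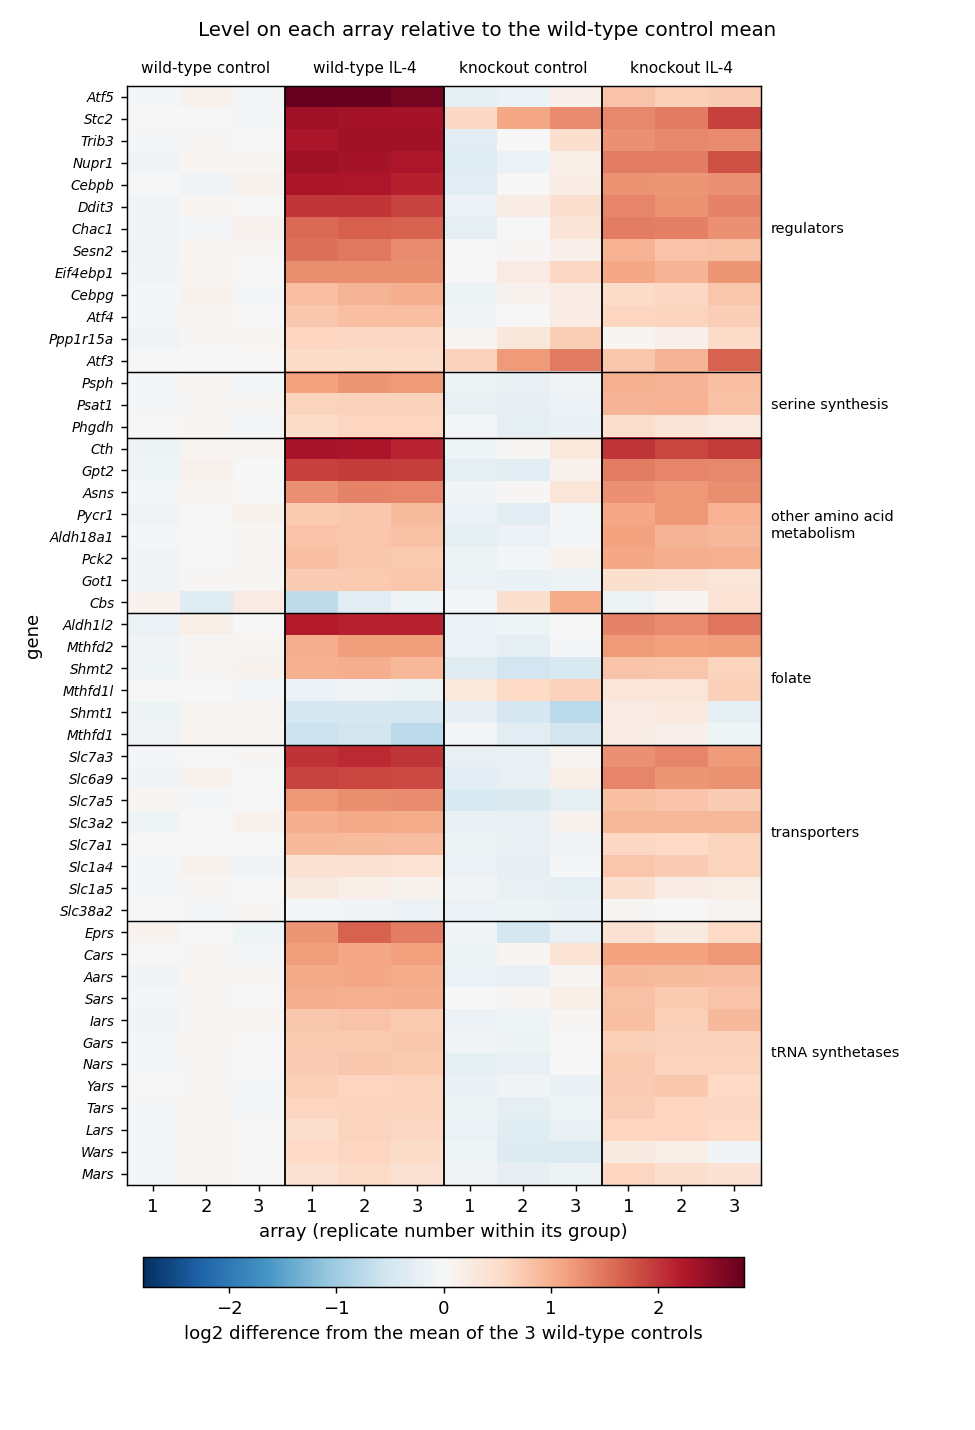
Heat map of the 50 tested genes (rows, grouped by class) on the 12 arrays (columns, by group and replicate number), coloured by the log2 difference from the mean of the 3 wild-type controls. The columns of both IL-4 groups are high for most genes, most of the 13 regulators are highest in the wild-type IL-4 arrays, and knockout control 3 is above knockout controls 1 and 2 for most regulators.

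The regulators moved most in wild-type cells. Of the 13, 12 rose with IL-4 in wild type (26.4% of all genes) and 9 at least 2-fold (5.72%), with a median log2 change of 1.63. In the knockout 11 rose (27.5%), 5 of them at least 2-fold (0.788%), with a median of 0.82. These genes were listed with earlier results known, so the counts only describe them. The mean level over the 13 genes was 3.24, 3.33 and 3.32 in wild-type controls and 4.93, 4.94 and 4.91 with IL-4, against 3.25, 3.51 and 3.79 in knockout controls and 4.29, 4.29 and 4.48 in knockout cells with IL-4.

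Atf5, a basic leucine zipper factor related to ATF4, had the largest wild-type response of all members. Its level was 5.50, 5.67 and 5.53 in wild-type controls, 8.34, 8.34 and 8.25 in wild-type IL-4 arrays, 5.32, 5.39 and 5.71 in knockout controls and 6.37, 6.24 and 6.27 in knockout IL-4 arrays. The wild-type IL-4 arrays stood apart from all 9 others, and the knockout IL-4 arrays lay between them and the controls. The rise was 6.72-fold in wild type (log2 2.75 ± 0.09, SE, n = 3 against 3) and 1.76-fold in the knockout (0.82 ± 0.09).

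Stc2, a secreted glycoprotein induced by stress, was -0.10, -0.09 and -0.13 in wild-type controls, 2.27, 2.23 and 2.23 in wild-type IL-4 arrays, 0.47, 0.97 and 1.21 in knockout controls and 1.24, 1.35 and 1.81 in knockout IL-4 arrays. Groups with and without IL-4 did not overlap in either genotype, but knockout control 3 lay just below the lowest knockout IL-4 array. The wild-type rise was 5.10-fold (2.35 ± 0.18). The knockout rise (0.58 ± 0.18) lost its call without knockout control 1 (0.38), without knockout IL-4 array 3 (0.41), with quantile normalization (0.52), and with slide as a block (0.26, limma adjusted p = 0.388). That call was also lost with no filter on dim probes and when only the knockout arrays entered the fit.

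Trib3, a pseudokinase that restrains ATF4 in a feedback loop, was 3.71, 3.80 and 3.77 in wild-type controls, 6.04, 6.11 and 6.11 with IL-4, 3.47, 3.76 and 4.20 in knockout controls and 5.04, 5.11 and 5.09 in knockout cells with IL-4. No knockout IL-4 array reached the wild-type IL-4 arrays, and no control reached either. The change was 5.01-fold in wild type (2.32 ± 0.14) and 2.42-fold in the knockout (1.27 ± 0.14).

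Nupr1, a small nuclear protein of the stress response, had the largest knockout response among regulators. It was 3.02, 3.17 and 3.18 in wild-type controls, 5.50, 5.45 and 5.40 with IL-4, 2.80, 2.96 and 3.31 in knockout controls and 4.55, 4.55 and 4.90 in knockout cells with IL-4. The groups with IL-4 stood above both control groups, by 5.01-fold in wild type (2.32 ± 0.13) and 3.13-fold in the knockout (1.65 ± 0.13). Chac1, an enzyme that breaks down glutathione, was 3.79, 3.81 and 3.98, then 5.44, 5.52 and 5.51 with IL-4 in wild type, and 3.58, 3.84 and 4.22, then 5.29, 5.28 and 5.13 with IL-4 in the knockout. The knockout IL-4 arrays of Chac1 lay just below the wild-type ones, and its rises were 1.63 ± 0.13 and 1.35 ± 0.13.

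Cebpb, a C/EBP factor that can pair with ATF4, was 0.58, 0.48 and 0.69 in wild-type controls, 2.86, 2.85 and 2.76 with IL-4, 0.28, 0.60 and 0.80 in knockout controls and 1.85, 1.83 and 1.86 in knockout cells with IL-4. It rose 4.72-fold in wild type (2.24 ± 0.11) and 2.45-fold in the knockout (1.29 ± 0.11). Its relative Cebpg rose 1.92-fold and 1.48-fold. Ddit3, which encodes the stress factor CHOP, and Atf4 are also given on every array, a choice made after their values were seen. Ddit3 was 2.66, 2.80 and 2.75 in wild-type controls, 4.74, 4.75 and 4.64 with IL-4, 2.58, 2.94 and 3.18 in knockout controls and 4.11, 3.99 and 4.13 in knockout cells with IL-4. Its rises were 1.97 ± 0.12 and 1.18 ± 0.12.

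The Atf4 message itself moved less than most of these genes. It was 7.82, 7.89 and 7.83 in wild-type controls and 8.60, 8.68 and 8.68 with IL-4, and 7.77, 7.83 and 8.05 in knockout controls and 8.44, 8.48 and 8.53 with IL-4. The rises were 1.75-fold (0.81 ± 0.07) and 1.51-fold (0.60 ± 0.07), and a second Atf4 probe gave 1.05 and 0.74. Arrays measure RNA, and ATF4 protein and eIF2 phosphorylation were not measured.

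The other regulators were less uniform. Sesn2, a leucine sensor that restrains mTORC1, rose 2.72-fold in wild type and 1.74-fold in the knockout, and Eif4ebp1, an inhibitor of cap-dependent translation, rose 2.46-fold and 1.77-fold. Ppp1r15a, the phosphatase subunit that reverses eIF2 phosphorylation, rose by 0.58 ± 0.16 on the log2 scale in wild type, and its knockout change was -0.11 ± 0.16. Atf3, a stress-induced factor, was 1.58 to 1.62 in wild-type controls and 2.10 to 2.14 with IL-4 without overlap, yet its change of 0.52 ± 0.23 was not called. It was called with median scaling (0.54), with the replicate block and when only the wild-type arrays entered the fit (limma adjusted p = 0.0437, 0.0435 and 6.89e-05). The knockout arrays were more spread, at 2.25, 2.78 and 3.06 in controls and 2.35, 2.54 and 3.25 with IL-4, a change of 0.02 ± 0.23.

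**Figure D2:**
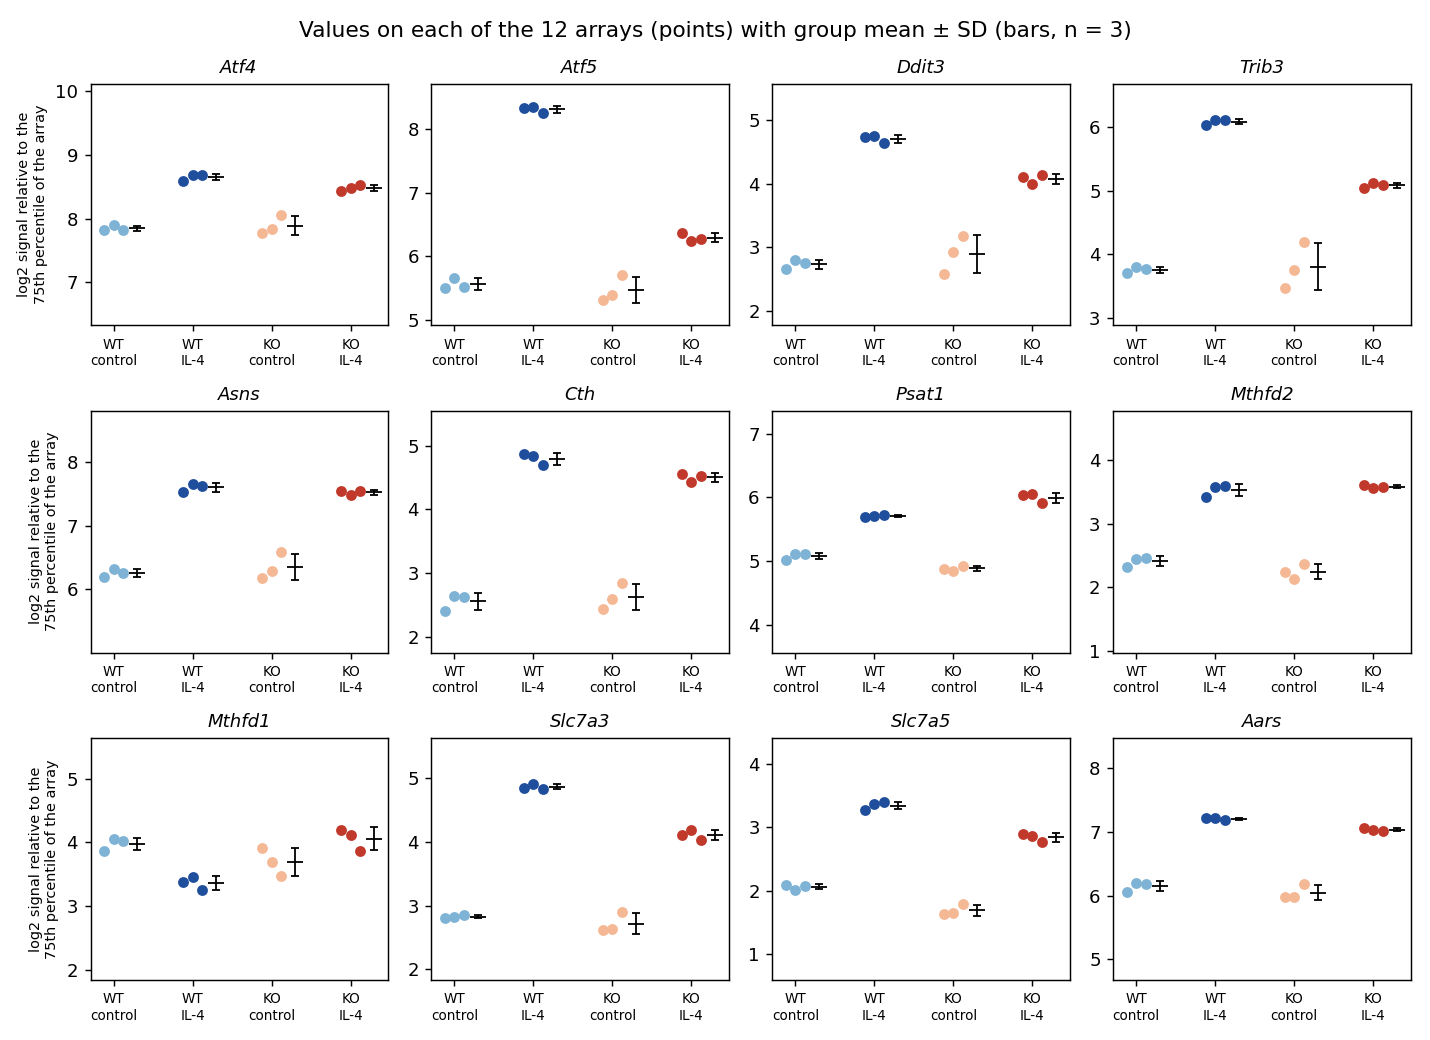
Level of 12 members on each array, in log2 signal relative to the 75th percentile of the array (vertical axis, each panel spanning the same range), for the 4 groups on the horizontal axis, with points for arrays and bars for the mean ± SD of 3 arrays. Atf5, Trib3 and Ddit3 reach a higher level with IL-4 in wild type than in the knockout. Asns and Aars rise in both genotypes, Psat1 ends higher in the knockout, and Mthfd1 falls in wild type.

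The 3 enzymes that make serine from a glycolytic intermediate rose in both genotypes, as did 12.6% of all genes. Phgdh, which catalyses the committed step, was 7.01, 7.08 and 7.0 in wild-type controls, 7.55, 7.62 and 7.63 with IL-4, 6.97, 6.77 and 6.84 in knockout controls and 7.53, 7.40 and 7.30 in knockout cells with IL-4. The rise was 1.49-fold (0.57 ± 0.07) and 1.46-fold (0.55 ± 0.07). Psat1, the aminotransferase of the next step, was 5.02, 5.11 and 5.10, then 5.69, 5.72 and 5.72 with IL-4 in wild type, and 4.88, 4.85 and 4.93, then 6.04, 6.05 and 5.91 with IL-4 in the knockout. It was the serine gene whose knockout IL-4 arrays lay above all wild-type IL-4 arrays, with rises of 1.55-fold (0.63 ± 0.05) and 2.16-fold (1.11 ± 0.05). Psph, the phosphatase of the last step, was 3.35, 3.44 and 3.36, then 4.51, 4.61 and 4.57 in wild type, and 3.24, 3.18 and 3.29, then 4.38, 4.34 and 4.23 in the knockout. It rose 2.26-fold and 2.12-fold.

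Among the 8 enzymes of other amino acids, 7 rose in both genotypes (12.6% of all genes). Cth, which makes cysteine from cystathionine, had the largest knockout response of all members. It was 2.41, 2.64 and 2.62 in wild-type controls, 4.86, 4.84 and 4.69 with IL-4, 2.44, 2.60 and 2.84 in knockout controls and 4.55, 4.43 and 4.52 in knockout cells with IL-4. The rise was 4.73-fold (2.24 ± 0.10) in wild type and 3.67-fold (1.88 ± 0.10) in the knockout, and a second probe gave 2.26 and 1.89. Cbs, which acts one step before Cth, was the exception of the class, with changes of -0.38 ± 0.27 and -0.39 ± 0.27 that were not called and knockout controls that ranged from -2.15 to -1.08.

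Gpt2, the mitochondrial alanine aminotransferase, was 1.22, 1.48 and 1.34 in wild-type controls, 3.26, 3.31 and 3.29 with IL-4, 1.08, 1.06 and 1.46 in knockout controls and 2.78, 2.72 and 2.70 in knockout cells with IL-4. It rose 3.84-fold and 2.90-fold. Asns, asparagine synthetase and a textbook target of ATF4 whose element is printed above, was 6.20, 6.31 and 6.25, then 7.52, 7.65 and 7.62 in wild type, and 6.18, 6.28 and 6.58, then 7.54, 7.47 and 7.55 in the knockout. The levels with IL-4 overlapped between genotypes, and the rises were 2.54-fold (1.34 ± 0.09) and 2.25-fold (1.17 ± 0.09).

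The enzymes of proline synthesis had the numerically larger rise in the knockout. Pycr1, which makes proline in mitochondria, was -0.19, -0.11 and 0.00 in wild-type controls, 0.64, 0.65 and 0.79 with IL-4, -0.26, -0.42 and -0.15 in knockout controls and 0.97, 1.12 and 0.87 in knockout cells with IL-4. Its rises were 1.73-fold and 2.41-fold, while a second probe gave log2 rises of 0.93 and 0.99. Aldh18a1, which makes its precursor, rose 1.73-fold and 2.22-fold, and Pck2, the mitochondrial carboxykinase, 1.71-fold and 2.09-fold. Got1, the cytosolic aspartate aminotransferase, rose 1.67-fold and 1.48-fold.

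Of the 6 folate enzymes, 3 of the 4 mitochondrial ones rose in both genotypes (12.6% of all genes). Aldh1l2, which oxidises formyl-folate, was -1.67, -1.33 and -1.50 in wild-type controls, 0.73, 0.65 and 0.66 with IL-4, -1.67, -1.62 and -1.51 in knockout controls and -0.11, -0.18 and -0.00 in knockout cells with IL-4. It rose 4.52-fold and 2.83-fold. Mthfd2, the mitochondrial methylene-folate dehydrogenase, was 2.32, 2.45 and 2.46, then 3.42, 3.58 and 3.59 in wild type, and 2.25, 2.13 and 2.37, then 3.61, 3.56 and 3.58 in the knockout, rises of 2.17-fold and 2.52-fold to overlapping levels. Shmt2, which passes a carbon from serine to folate in mitochondria, was 4.93, 5.08 and 5.16, then 6.05, 6.08 and 6.00 in wild type, and 4.71, 4.52 and 4.63, then 5.85, 5.84 and 5.68 in the knockout. It rose 1.97-fold and 2.25-fold from a lower knockout start.

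The cytosolic counterparts Shmt1 and Mthfd1 were the members that fell in wild-type cells, and their values are given in full for that reason. Mthfd1 was 3.87, 4.05 and 4.01 in wild-type controls, 3.37, 3.46 and 3.24 with IL-4, 3.91, 3.68 and 3.47 in knockout controls and 4.19, 4.12 and 3.86 in knockout cells with IL-4. The wild-type groups did not overlap, while knockout control 1 lay above the lowest knockout IL-4 array. The wild-type change was -0.62 ± 0.12 and the knockout change 0.37 ± 0.12, and the knockout call was lost with each of knockout controls 2 and 3 and knockout IL-4 arrays 1 and 2 left out (0.26 to 0.37), with quantile normalization (0.24) and in the authors' gene-level table (0.23). Shmt1 was 1.39, 1.61 and 1.62, then 1.06, 1.09 and 1.08 in wild type, and 1.31, 1.08 and 0.78, then 1.78, 1.82 and 1.29 in the knockout. Its wild-type change of -0.47 ± 0.16 lost its call without wild-type control 2 or 3 or any wild-type IL-4 array (-0.47 to -0.43) and with median scaling (-0.45), and its knockout change of 0.58 ± 0.16 without knockout IL-4 array 1 (0.50) or 2 (0.48). With no filter on dim probes, the knockout call of Mthfd1 and the wild-type call of Shmt1 were also lost. The knockout calls of both genes were lost when only the knockout arrays entered the fit. Mthfd1l, the mitochondrial formate producer, changed by -0.14 ± 0.10 and -0.05 ± 0.10 and was not called in either genotype.

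Transporters of several substrates rose together. Slc7a3, a carrier of cationic amino acids, was 2.80, 2.82 and 2.86 in wild-type controls, 4.85, 4.91 and 4.84 with IL-4, 2.62, 2.63 and 2.90 in knockout controls and 4.11, 4.19 and 4.03 in knockout cells with IL-4. It rose 4.11-fold and 2.63-fold, and its relative Slc7a1 rose 1.84-fold and 1.65-fold. Slc6a9, a glycine carrier, was 3.09, 3.27 and 3.15, then 5.06, 5.03 and 5.03 in wild type, and 2.87, 2.95 and 3.32, then 4.54, 4.41 and 4.43 in the knockout, rises of 3.66-fold and 2.67-fold. For both genes every wild-type IL-4 array lay above every knockout IL-4 array.

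Slc7a5 and Slc3a2 encode the light and heavy chain of a carrier of large neutral amino acids. Slc7a5 was 2.10, 2.02 and 2.07, then 3.27, 3.36 and 3.39 in wild type, and 1.63, 1.65 and 1.80, then 2.90, 2.86 and 2.77 in the knockout. The knockout began lower and ended lower, with rises of 2.42-fold and 2.22-fold, and Slc3a2 rose 2.05-fold and 2.04-fold. The neutral amino acid carriers Slc1a4, Slc1a5 and Slc38a2 moved less. Slc1a4 rose 1.32-fold and 1.80-fold. Slc1a5, a glutamine carrier, changed by 0.18 ± 0.08 in wild type, which was not called, and rose 1.39-fold in the knockout. Slc38a2 changed by -0.09 ± 0.05 in wild type and was 1.15-fold higher in the knockout. Its knockout call was lost with quantile normalization (0.07, limma adjusted p = 0.276) and in the authors' gene-level table (0.10, limma adjusted p = 0.135), and its wild-type fall was called with quantile normalization (-0.14).

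The 12 synthetases, which load amino acids onto tRNA, rose in both genotypes (12.6% of all genes). Their medians were 0.74 in wild type and 0.81 in the knockout. Their mean level was 3.94 to 4.01 in wild-type controls, 4.76 to 4.81 with IL-4, 3.78 to 3.92 in knockout controls and 4.59 to 4.67 in knockout cells with IL-4. Changes ranged from 0.46 (Mars, for methionine) to 1.44 (Eprs, for glutamate and proline) in wild type and from 0.40 (Wars, for tryptophan) to 1.05 (Cars, for cysteine) in the knockout.

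Cars was 5.78, 5.81 and 5.76 in wild-type controls, 6.96, 6.87 and 6.94 with IL-4, 5.64, 5.84 and 6.17 in knockout controls and 6.90, 6.90 and 7.0 in knockout cells with IL-4. Aars, for alanine, was 6.06, 6.19 and 6.19, then 7.21, 7.22 and 7.19 in wild type, and 5.99, 5.97 and 6.18, then 7.07, 7.03 and 7.02 in the knockout. Cars rose 2.20-fold in wild type and 2.07-fold in the knockout, and Aars 2.08-fold and 1.99-fold. Iars, for isoleucine, was 4.88, 5.0 and 5.02, then 5.71, 5.76 and 5.70 in wild type, and 4.80, 4.85 and 4.99, then 5.82, 5.64 and 5.87 in the knockout. Eprs was -2.18, -2.25 and -2.38, then -1.04, -0.61 and -0.83 in wild type, and -2.34, -2.76 and -2.48, then -1.85, -2.02 and -1.71 in the knockout. It was the synthetase with the widest gap between genotypes, 2.72-fold and 1.59-fold. The others, Gars, Nars, Sars, Tars, Yars and Lars, rose by 0.57 to 1.01 in wild type and 0.70 to 0.83 in the knockout.

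The size of the response was compared between genotypes as the wild-type change minus the knockout change. In limma over all genes, with Benjamini-Hochberg adjustment, 15 of 50 members had a larger wild-type response (16.4% of all genes) and 9 a larger knockout response (28.3%). The difference was at least 2-fold for 3 of the first (5.61%) and 1 of the second (5.03%). The other 26 were not called, which does not show equal responses. The median difference was 0.11, and -0.02 with arrays scaled on their medians, where the median over all genes went from -0.10 to -0.23. It is not recorded which contrasts the list was drawn from, so these calls are not independent of the choice of genes either.

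The regulators accounted for 9 of the 15, and all 13 had the numerically larger change in wild type. The difference was 1.93 for Atf5 (95% interval 1.63 to 2.23, adjusted p = 1.64e-06), 1.77 for Stc2 (1.20 to 2.33, adjusted p = 0.000317), 1.05 for Trib3 (0.61 to 1.49, adjusted p = 0.00185) and 0.95 for Cebpb (0.60 to 1.30, adjusted p = 0.000837). As a ratio of the fold changes, this was 3.81 for Atf5, 3.41 for Stc2, 2.07 for Trib3 and 1.93 for Cebpb. Ddit3 differed by 0.79 (adjusted p = 0.00457), Nupr1 by 0.68 (adjusted p = 0.0137) and Sesn2 by 0.64 (adjusted p = 0.00086). Those 7 were called in every refit. Ppp1r15a (0.70) lost its call without wild-type control 1, wild-type IL-4 arrays 1 or 3 or knockout IL-4 arrays 1 or 2 (0.60 to 0.70). Eif4ebp1 (0.48) lost its call without any single array other than knockout control 1 and knockout IL-4 array 3 (0.33 to 0.51), and with median scaling (0.35). Ppp1r15a and Eif4ebp1 also lost their calls with no filter on dim probes. Atf4 itself differed by 0.21 (interval -0.01 to 0.43) and was not called, but was called without knockout control 1 (0.27), with slide as a block (0.38, adjusted p = 0.00557), with quantile normalization (0.33, adjusted p = 0.00424) and in the authors' gene-level table (0.30, adjusted p = 0.00703). Cebpg (0.38) was not called either, but was with quantile normalization (0.45), normexp (0.39), the authors' gene-level table (0.44) and slide as a block (0.54). With that block 12 of the 13 regulators were called with the larger wild-type response, as were 15.8% of all genes, Atf3 (0.86, limma adjusted p = 0.0882) being the exception.

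**Figure D3:**
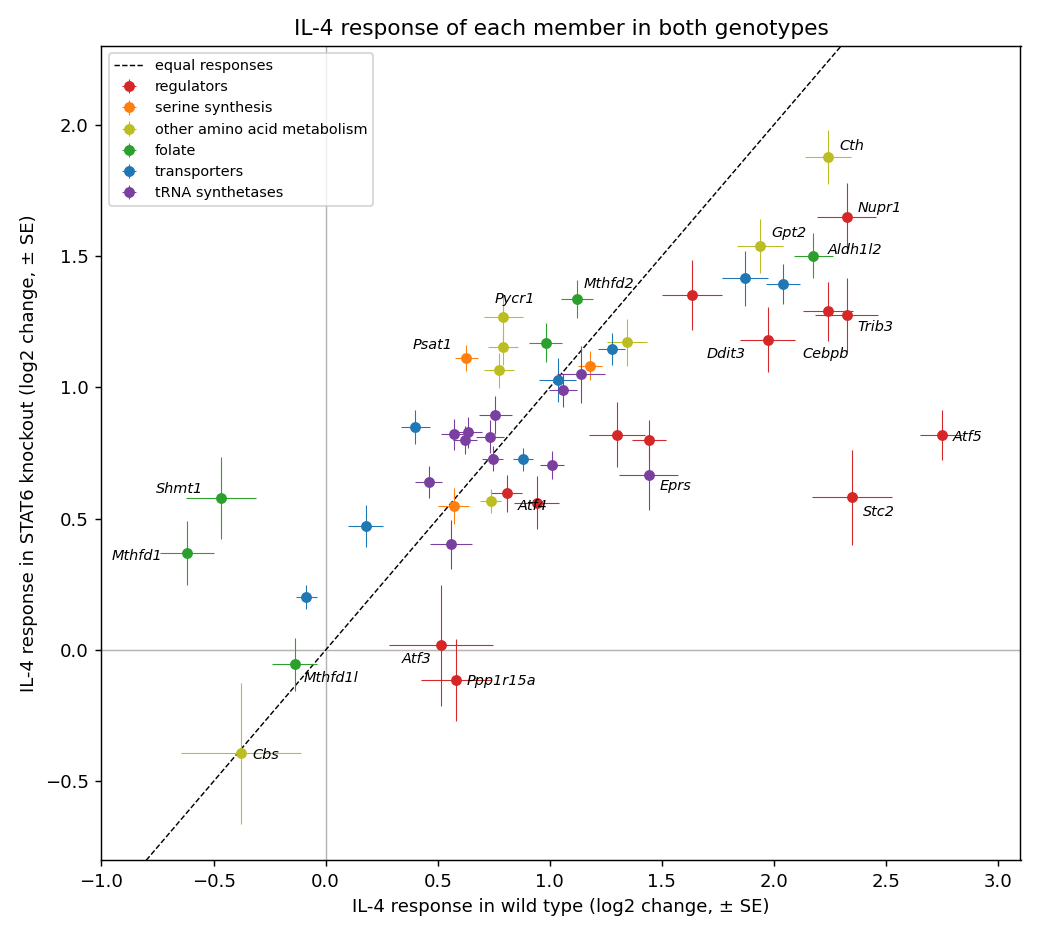
IL-4 response of each of the 50 members as log2 change ± SE, in wild type (horizontal axis) and in the STAT6 knockout (vertical axis), coloured by class, with a dashed line where both are equal. The regulators lie to the right of the line, with Atf5 and Stc2 farthest from it, most synthetases lie near it, and Mthfd1 and Shmt1 lie left of 0.

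The other members called with a larger wild-type response were Aldh1l2 (0.68, adjusted p = 0.00138), Slc7a3 (0.65, adjusted p = 0.000835), Slc6a9 (0.46), Gpt2 (0.40), Eprs (0.77, adjusted p = 0.00738) and Sars (0.31). Sars lost its call with median scaling (0.17, adjusted p = 0.288). Slc6a9 lost its call with median scaling (0.32) and without wild-type control 1 or 3, any wild-type IL-4 array or knockout IL-4 array 2 (0.41 to 0.46). Gpt2 lost its call with median scaling (0.27) and without wild-type control 1 or 3 or any single array with IL-4 (0.34 to 0.43). Slc6a9 and Gpt2 also lost their calls with no filter on dim probes, and Gpt2 with the replicate block. A larger knockout response was called for Shmt1 (-1.04, adjusted p = 0.00358), Mthfd1 (-0.99, adjusted p = 0.00106), Psat1 (-0.48, adjusted p = 0.000401), Pycr1 (-0.47), Slc1a4 (-0.45), Aldh18a1 (-0.36), Pck2 (-0.29), Slc38a2 (-0.29) and Lars (-0.25). For Shmt1 and Mthfd1 the responses had opposite signs and both were called. Slc38a2, and Ppp1r15a among the larger wild-type responses, also had opposite signs, but 1 of the 2 responses was not called. Pycr1 lost its call with the mean of its kept probes (-0.26, adjusted p = 0.260), and its second probe gave -0.05. Pck2 lost its call without wild-type control 2 or 3, wild-type IL-4 array 2 or 3, knockout control 1 or 2, or knockout IL-4 array 1 or 2 (-0.30 to -0.23). Lars lost its call without wild-type control 2, wild-type IL-4 array 1 or 3, knockout control 2, or knockout IL-4 array 1 or 2 (-0.26 to -0.20), with quantile normalization (-0.14), with median scaling (-0.38) and in the authors' gene-level table (-0.16). Pck2 and Lars also lost their calls with no filter on dim probes, and Lars with the replicate block. With slide as a block the count was 22 (15.8% of all genes) and 5 (26.3%) in place of 15 and 9. Pycr1 (-0.34), Aldh18a1 (-0.26), Pck2 (-0.15) and Lars (-0.22) were then no longer called. Asns (0.41), Cth (0.58), Cars (0.38) and Slc7a1 (0.22) were called with a larger wild-type response. Among other refits, quantile normalization and the authors' gene-level table also called Cth (0.43 in each), Slc7a1 (0.25 and 0.27) and Got1 (0.25 and 0.19). Slc1a5 was called with a larger knockout response with normexp (-0.33) and with the replicate block (-0.29).

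Beside Eprs, Sars and Lars, the other 9 synthetases were not called for a difference, and their 95% intervals varied in width and position. The difference was 0.02 for Gars (-0.13 to 0.17), -0.08 for Nars (-0.28 to 0.12), -0.14 for Iars (-0.37 to 0.09), 0.09 for Cars (-0.25 to 0.43) and 0.16 for Wars (-0.14 to 0.45). It was -0.18 for Mars (-0.37 to 0.01), and the unadjusted intervals of Tars (-0.35 to -0.01) and Yars (-0.38 to -0.01) lay below 0. Yars was called with quantile normalization (-0.32). Aars differed by 0.07 (-0.13 to 0.27), but was called with a larger wild-type response in the authors' gene-level table (0.25, limma adjusted p = 0.0160). Among genes of other classes Slc3a2 (0.01, -0.26 to 0.27), Phgdh (0.02, -0.20 to 0.24) and Psph (0.10, -0.08 to 0.27) had intervals of similar width. Of the 15 genes with the promoter element, the difference was called larger in wild type for Nupr1 and Trib3, larger in the knockout for Pycr1, Pck2 and Slc1a4, and in neither direction for Atf3, Chac1, Asns, Got1, Aars, Gars, Tars, Iars and Yars, and Slc7a11 was not tested. Atf5 and Stc2, with the widest gaps, had no element in the window, and Trib3, with the next widest, had it.

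The genotypes were then compared at each condition, using the same arrays. Without IL-4, 3 members were higher in the knockout (4.73% of all genes) and 5 lower (6.96%), by 2-fold or more in 1 (0.837%) and 0 (0.339%). Atf3 was 2.14-fold higher (1.10 ± 0.23, adjusted p = 0.0221), Stc2 1.99-fold (0.99 ± 0.18, adjusted p = 0.0120) and Mthfd1l 1.41-fold (0.50 ± 0.10, adjusted p = 0.0204). Those lower were Shmt2 (-0.44), Slc7a5 (-0.37), Lars (-0.24), Psat1 (-0.20) and Slc38a2 (-0.16). None of these 8 calls held in every refit. Counts were 6 higher and 8 lower without knockout control 1, and 0 and 2 without knockout control 2. They were 1 and 2 without knockout control 3 or with slide as a block (0.903% and 1.62% of all genes), and 1 and 2 without any single wild-type control. The share of all genes called changed between refits too, from 4.73% and 6.96% to 0.903% and 1.62% with that block. Nothing about the members is therefore read from these moves. With median scaling 25 members were lower, where 30.9% of all genes were. The glycolysis and hypoxia genes were higher in knockout controls in 11 of 12 cases, with a median of 1.25, and their part in these differences was not tested.

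With IL-4, 9 members were higher in the knockout (29.8% of all genes) and 23 lower (21.3%), by 2-fold or more in 0 (4.63%) and 3 (5.05%). All wild-type IL-4 arrays were on the first slide and all knockout IL-4 arrays on the second, so genotype and slide cannot be told apart here. The fit with slide as a block separates them through knockout control 3 alone. The largest difference was in Atf5, 4.05-fold lower in the knockout (-2.02 ± 0.09, limma adjusted p = 4.31e-08). Others lower were Eprs (-1.03), Trib3 (-1.0), Cebpb (-0.98), Nupr1 (-0.78), Aldh1l2 (-0.77), Stc2 (-0.77) and Slc7a3 (-0.76), and 17 of the 23 were lower in every refit. Those higher were led by Mthfd1 (0.70), Mthfd1l (0.58) and Shmt1 (0.56), and of the 9 only Mthfd1 was called in every refit, while Shmt1 lost its call without knockout IL-4 array 2 (0.46). With slide as a block the counts were 2 higher (18.1% of all genes) and 28 lower (13.9%). Regulators lower with IL-4 numbered 8 of 13, against 2 of 3 serine enzymes, 3 of 8 amino acid enzymes, 2 of 6 folate enzymes, 4 of 8 transporters and 4 of 12 synthetases.

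Other genes of the same pathways, listed by function, were set beside the members. Of 11 other cytosolic synthetase genes and their complex partners, 1 rose (Dars, 0.38) and 1 fell (Aimp2, -0.18) in wild type, with a median of 0.04, and 6 rose in the knockout, Vars and Farsb among them, with a median of 0.21. Of 16 mitochondrial synthetases, 1 rose and 9 fell in wild type, led by Pars2 (-0.66) and Vars2 (-0.64), and 6 rose and 1 fell in the knockout. The 12 member synthetases had medians of 0.74 and 0.81. Which synthetases were put on the list may reflect their earlier results, so this gap is given as values.

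Further folate genes were mixed: 6 of 16 rose and 8 fell in wild type (median -0.26) and 7 rose and 2 fell in the knockout (median 0.25). Mthfs rose by 0.55 and Mthfd2l fell by 0.43 in wild type. Mtrr, which reactivates methionine synthase, was not well above background on any wild-type IL-4 array and was at least 1.57-fold lower there than in wild-type controls, a bound set against the lowest signal well above background on each array. Tyms (0.54) and Mtr (0.50) rose in the knockout, and Aldh1l1, the cytosolic relative of Aldh1l2, rose by 0.39 in wild type and fell by 1.29 in the knockout.

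Of 20 other amino acid genes, 8 rose and 5 fell in wild type (median 0.07) and 10 rose and 2 fell in the knockout (0.24). Ahcy, which clears homocysteine precursors, rose by 1.33 and 0.39, and Arg2, an arginase, by 1.76 and 0.68. Cdo1, the cysteine dioxygenase, changed by -3.36 in wild type, where it was well above background on 1 of 3 IL-4 arrays, and by 0.01 in the knockout. Of 11 other transporters 4 rose and 3 fell in wild type, with Slc43a2 up by 1.28 and Slc16a10 down (-0.99), and 2 rose and 1 fell in the knockout.

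The machinery upstream of ATF4 was listed too. Of 15 genes of eIF2, its exchange factor, its kinases and their regulators, 4 rose and 3 fell in wild type (median 0.04) and 8 rose and 1 fell in the knockout (median 0.18). Impact, which restrains an amino acid sensing kinase, rose by 0.57 in wild type and changed by -0.07 in the knockout. The kinases Eif2ak2 (-0.82) and Eif2ak3 (-0.58) fell in wild type, and Eif2ak2 fell in the knockout (-0.27).

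Of 13 other genes described as ATF4 targets, 9 rose and 1 fell in wild type, 5 at least 2-fold (median 0.49), and 5 rose and 2 fell in the knockout, none by 2-fold (median 0.34). Jdp2 rose by 2.18 in wild type and 0.56 in the knockout, and Hmox1 by 1.76 in wild type with a knockout change of 0.12. Of these 13, 7 had a larger wild-type response by the test of the difference (16.4% of all genes) and 2 a larger knockout response (28.3%). Genes of the endoplasmic reticulum stress response, which shares Ddit3 with this pathway, numbered 12, of which 3 rose and 2 fell in wild type (median -0.11) and 0 rose and 8 fell in the knockout (median -0.26). Xbp1 rose by 0.87 in wild type and fell by 0.90 in the knockout, and Dnajb9 fell in both (-0.95 and -0.62).

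Growth genes and plasma cell markers moved with IL-4 as well. Of 8 growth and division genes, 3 rose and 1 fell in wild type (median 0.09) and 7 rose in the knockout (median 0.46). Myc fell by 0.58 in wild type and rose by 0.27 in the knockout, while Mki67 rose by 0.22 and 0.40. The mean of 5 plasma cell markers went from between 3.06 and 3.1 to between 0.89 and 1.06 in wild type, and from between 2.85 and 3.09 to between 1.60 and 1.69 in the knockout, but the markers did not move as one. In wild type Igj, Derl3 and Prdm1 fell (-5.82, -3.07 and -2.81), while Sdc1 (0.76) and Irf4 (0.29) rose. In the knockout the same 3 fell, Irf4 rose (0.23) and Sdc1 changed by 0.10 without a call. Of 5 B cell markers 3 fell in wild type (Cd79a, -0.91, Pax5, -0.78, and Cd22, -0.57) and Cd79b rose (0.64), and in the knockout 3 rose. Of other markers, Flt3 (-1.65), Emr1 (-0.92) and Cd68 (-0.45) fell and Cd14 (0.38) and Siglech (0.31) rose in wild type, and in the knockout Emr1 rose (0.55) and Cd68 fell (-0.92). Itgax also rose in wild type (2.57), but its controls were not well above background, so that value is not a measured fold. Glycolysis and hypoxia genes fell in 1 of 12 cases in wild type and in 8 of 12 in the knockout (medians -0.33 and -1.02). The part of these changes in the response of the members was not tested.

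**Figure D4:**
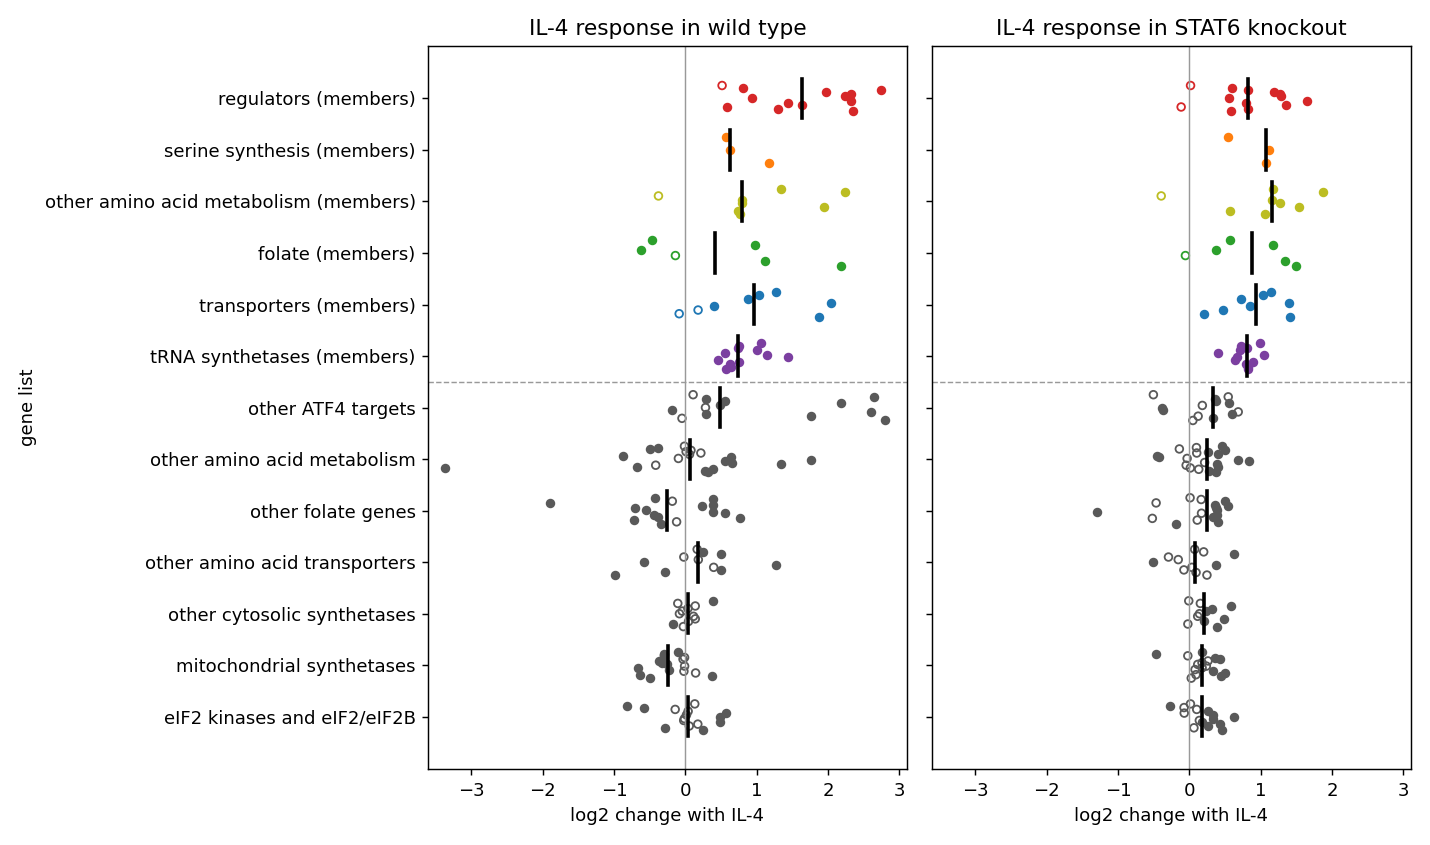
Log2 change with IL-4 in wild type (left) and in the STAT6 knockout (right) for each gene of the 6 member classes (above the dashed line) and of 7 other lists (below it), with filled points for genes called at an adjusted p under 0.05, open points for the rest and a black bar at each list's median. The medians of the member classes lie between 0.42 and 1.63 in wild type, and those of the other lists between -0.26 and 0.49.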

How the data were processed

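The members were chosen with earlier results of these data known. The other gene lists were chosen by function without their values, though at a time when earlier results of these data were known. The scanner files of the 12 arrays give a processed intensity per spot, which the authors obtained with Agilent Feature Extraction 10.7.3.1 (background subtracted, a surrogate for spots near background, no scaling between arrays), per the file headers, with positions on build mm9. A gene-level table of log2 values, background subtracted and quantile normalized by the authors per the opening line of that file, was used as an alternative. Intensities were log2 transformed and set relative to the 75th percentile of their array. Outlier-flagged spots (122 to 196 an array) were removed before averaging the spots of each probe. Probes not well above background throughout any 1 group of 3 arrays were dropped, leaving 22940, and the brightest of a gene's probes was used. Of 12 members with several kept probes, Shmt1 in the knockout, Slc1a5 in wild type and Pycr1 in the difference of responses had a second probe on the other side of the threshold.

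Group means over all 12 arrays came from a linear model (limma 3.58.1, R 4.3.3, jsonlite 2.0.0 and data.table version 1.17.8), with Benjamini-Hochberg adjustment over the 16497 genes in each of 5 contrasts. Contrasts share arrays, except the IL-4 responses of the genotypes. The fit was tested on simulated arrays with independent spread and no slide effect. It recovered 67% of log2 changes of 0.5 and 80% of those of 1, and called 7 unchanged genes. Only a small part of the 16497 genes was changed there, while 26.4% rose and 30.8% fell in the real wild-type contrast. The adjustment is stricter when few genes change, so these rates are not those of the real contrasts. Real changes of these sizes can still go uncalled. Sequences came from RefSeq tables, and the plots were made in Python 3.11.15 (matplotlib 3.10.9, pandas 2.3.3). Alternatives were quantile and median scaling, normexp (offset 50), no filter and a filter on all 12 arrays, the mean of kept probes, only the arrays compared, slide and replicate number as blocks, eBayes with trend and robust, the authors' table, and leaving out each array. Full values were given for up to 3 members of each class with the largest change in an IL-4 contrast. Non-members were named if among the 2 of their list with the smallest adjusted p in a direction, or if Myc, Stat6 or a marker. A listed non-member and a marker were left out of their lists and are not reported here. Deviations from the group mean correlated at -0.24 to 0.39 over 18 pairs of same-numbered arrays of different groups. Over 36 pairs with other numbers they correlated at -0.47 to 0.31. Between control and IL-4 arrays of a genotype, same numbers gave 0.03 to 0.07 in wild type and -0.02 to 0.39 in the knockout. Other numbers gave -0.05 to 0.01 and -0.47 to 0.31 there. These ranges are too few and too wide to settle whether the numbers pair the samples.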

Additional observations from a re-analysis of the deposited data

Results flagged for a closer look

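The IL-4 response differed between genotypes, by the limma test of the difference (wild-type minus knockout log2 change) at an adjusted p under 0.05, for 24 members and 35 other genes named by rule or tested beside them. Larger in wild type among members were Atf5 (1.93), Stc2 (1.77), Trib3 (1.05), Cebpb (0.95), Ddit3 (0.79), Eprs (0.77), Ppp1r15a (0.70), Nupr1 (0.68), Aldh1l2 (0.68), Slc7a3 (0.65), Sesn2 (0.64), Eif4ebp1 (0.48), Slc6a9 (0.46), Gpt2 (0.40) and Sars (0.31). Larger in the knockout among members were Shmt1 (-1.04), Mthfd1 (-0.99), Psat1 (-0.48), Pycr1 (-0.47), Slc1a4 (-0.45), Aldh18a1 (-0.36), Pck2 (-0.29), Slc38a2 (-0.29) and Lars (-0.25). Among the other genes the response was larger, or less negative, in wild type for Xbp1 (1.77), Aldh1l1 (1.68), Hmox1 (1.64), Jdp2 (1.62), Arg2 (1.08), Ass1 (1.06), Ahcy (0.94), Slc43a2 (0.91), Sqstm1 (0.67), Impact (0.64), Edem1 (0.56), Dars (0.39), Mthfs (0.38) and Map1lc3b (0.19). It was larger, or less negative, in the knockout for Cdo1 (-3.38), Mtrr (-1.43), Slc16a10 (-1.24), Odc1 (-1.09), Myc (-0.84), Pars2 (-0.84), Vars2 (-0.73), Mtr (-0.69), Eif2ak2 (-0.55), Eif2ak3 (-0.51), Got2 (-0.46), Fars2 (-0.46), Farsb (-0.44), Mthfd2l (-0.44), Gfpt1 (-0.38), Tars2 (-0.35), Vars (-0.35), Top2a (-0.33), Dnajb9 (-0.32), Bbc3 (-0.30) and Bcat1 (-0.28). Cdo1 and Mtrr were not well above background on some or all wild-type IL-4 arrays, so their values are not measured folds. The share of all genes with such a difference was 16.4% in the first direction and 28.3% in the other, and the members were chosen with these data known. Groups of 3 arrays are too small for a search for outlying arrays.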

How the results depend on the processing

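No member called in a contrast turned its direction under any alternative, but members that were not called did: 3 in the knockout response, 11 in the difference of responses, 14 between controls and 8 between genotypes with IL-4. With slide as a block Atf3 went from 0.02 to -0.34 in the knockout, and between controls Trib3 went from 0.05 to -0.15 and Atf4 from 0.04 to -0.05. Counts moved as follows. Members lower with IL-4 in wild type numbered 2 (30.8% of all genes), and 1 with median scaling (22.9%) or with no filter on dim probes (12.6%). In the knockout 0 were lower with IL-4 by limma (14.7% of all genes) and 1 (Cbs) with slide as a block (11.8%). Members with the larger knockout response numbered 9 (28.3% of all genes), and 5 with slide as a block (26.3%). In knockout against wild-type controls, 3 were higher (4.73% of all genes), and 0 with no filter and 1 with slide as a block (0.903%). Lower there were 5 (6.96% of all genes), against 25 with median scaling (30.9%), 10 with eBayes trend and robust and 8 with normexp (9.53%). They numbered 3 with the mean of kept probes, 0 with no filter, and 2 with only the compared arrays, slide as a block (1.62%) or the replicate block. The share of all genes changed between settings too, so nothing about the members is read from these moves. In knockout against wild type with IL-4, 9 were higher (29.8% of all genes), and 4 with median scaling (18.4%) and 2 with slide as a block (18.1%). Whether the same replicate numbers pair the arrays was not settled. The replicate block otherwise left counts within 1.5 times: 44 higher and 2 lower with IL-4 in wild type and 46 higher in the knockout.

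Leaving out each array gave 43 to 44 higher and 1 to 2 lower in wild type, 44 to 46 higher and 0 to 0 lower in the knockout, 11 to 19 and 7 to 11 in the difference of responses, 0 to 6 higher and 2 to 9 lower between controls, and 6 to 10 higher and 18 to 26 lower with IL-4. In the fit on all arrays 26.4% of all genes were higher and 30.8% lower in wild type, and 27.5% and 14.7% in the knockout. The shares were 16.4% and 28.3% in the difference of responses, 4.73% and 6.96% between controls and 29.8% and 21.3% with IL-4. They change between refits too, from 23.9% to 27.4% for rises in wild type, so nothing about the members is read from these ranges. Among controls, 9 were lower without knockout IL-4 array 3. The wild-type count of 1 arose without wild-type control 2 or 3 or any wild-type IL-4 array.

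Scaling moved shares of calls. Of all called genes, the share going up was 65.1% in the knockout response (82.2% with median scaling, 55.6% with quantile, 55.2% in the authors' table), 36.7% in the difference of responses (26.5% with median scaling) and 40.4% between controls (8.37% with median scaling). Median scaling moved the median of all genes by 0.15, -0.13 and -0.18 in these. With IL-4 the share of higher calls in the knockout was 58.3% (48.7% with median scaling). With the mean of all kept probes, Ern1, a non-member, reversed in wild type (0.20), and the cause was not tested. Dim genes such as Cdo1 and Mtrr are limited by background.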
